A study of Mus musculus with 8 samples.

Results

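Retinoic acid is a small lipid signal made from vitamin A, and its handling by neural precursor cells was followed here through 9 mouse genes. They were selected by gene symbol and were all present, 9 of the 23997 symbols listed in every library. Aldh1a1, Aldh1a2 and Aldh1a3 encode retinaldehyde dehydrogenases, the enzymes of the last step of synthesis. Cyp26b1 encodes a cytochrome P450 that oxidises retinoic acid and so clears it. Crabp1 and Crabp2 encode cytosolic proteins that bind it, and Rara, Rarb and Rarg encode its nuclear receptors.

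The series looks for targets of Nfia, a DNA-binding protein of the nuclear factor I (NFI) family, in neural stem/precursor cells. The cells came from the telencephalon of ICR mouse embryos at E11.5 (E11 in the stage label) and grew attached to coated dishes in a defined medium with 10 ng/mL bFGF, a growth factor. RNA was compared between 3 libraries of Nfia-transduced cells and 3 of control cells, 3 days after transduction. The sources used here do not give the vector, its promoter, what the control cells received or the number of embryos. The labels do not state that replicates are separate cultures, and each p-value therefore reflects only how far these libraries vary, which could be technical variation. The Flag ChIP and IgG ChIP samples (1 each) are not analysed here. In bulk RNA, fewer cells of a type and less RNA per cell cannot be told apart.

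Retinoic acid binds receptors of the RAR family, which sit on DNA as a pair with a retinoid X receptor (RXR). Without the ligand the pair holds corepressors, and with it the pair recruits coactivators. In the embryonic mouse forebrain synthesis is local, and Aldh1a2 is best known from the meninges and Aldh1a3 from the ventrolateral telencephalon. Rarb is a classic target that retinoic acid induces through an element in the gene's own promoter.

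Levels are FPKM (fragments scaled to gene length and library size), so genes can be set side by side. Nfia was at 69.0, 85.6 and 104 FPKM in Nfia libraries, against 19.8, 23.9 and 22.2 FPKM in control libraries, so every Nfia library was higher, as its label says. Of the other NFI genes, Nfic (0.61, limma adjusted p = 0.00512) and Nfix (0.57, limma adjusted p = 0.0228) rose on the log2 scale described below, and Nfib did not pass (-0.06, limma adjusted p = 0.534). All 12 markers of neural precursors were tested, and 4 were higher and 5 lower with Nfia, with sums of 5562 to 6641 FPKM in Nfia libraries and 5638 to 6128 FPKM in control libraries. Fabp7, which was not called, and Vim, which was called higher, made up most of these sums. The sums therefore say little of the other markers. The test was limma on log2(FPKM + 1), run on the 12537 genes whose average over all libraries reached 1 FPKM. P-values were adjusted over those genes by the Benjamini-Hochberg method, with a threshold of 0.05. Of all tested genes 16.1% were called higher and 15.1% lower, the shares to set beside the marker counts. Each log2 difference is Nfia minus control on that scale, which understates the change of low genes.

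Promoter sequences from RefSeq (GRCm38.p6) were at hand for 7 of the 9 genes, in 12 windows of 250 bases before and 50 bases after a transcription start. Rarb is shown for the retinoic acid element it is known by, Cyp26b1 as the called gene with a window, and Aldh1a1 as the gene with the highest ratio of Nfia to control mean level among the 9, though it was not called, both with the half-site of the family the transduced factor belongs to. Capitals mark, in Rarb, the half-sites GGTTCA and AGTTCA with any 5 bases between them, and in the others the NFI half-site TTGGC or its reverse complement GCCAA.
Rarb, chr14:16575427-16575726, minus strand: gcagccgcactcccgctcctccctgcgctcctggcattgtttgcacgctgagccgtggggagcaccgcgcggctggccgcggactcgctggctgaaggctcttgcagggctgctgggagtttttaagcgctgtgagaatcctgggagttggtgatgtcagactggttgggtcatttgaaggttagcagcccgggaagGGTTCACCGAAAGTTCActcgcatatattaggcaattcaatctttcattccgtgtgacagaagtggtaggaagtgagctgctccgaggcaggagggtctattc
Cyp26b1, chr6:84593761-84594060, minus strand: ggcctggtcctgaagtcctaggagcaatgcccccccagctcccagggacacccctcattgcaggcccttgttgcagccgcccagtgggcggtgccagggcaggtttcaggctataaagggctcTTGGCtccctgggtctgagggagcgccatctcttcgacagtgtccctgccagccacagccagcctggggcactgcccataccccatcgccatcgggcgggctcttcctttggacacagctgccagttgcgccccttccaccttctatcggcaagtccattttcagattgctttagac
Aldh1a1 first start, chr19:20492333-20492632, plus strand: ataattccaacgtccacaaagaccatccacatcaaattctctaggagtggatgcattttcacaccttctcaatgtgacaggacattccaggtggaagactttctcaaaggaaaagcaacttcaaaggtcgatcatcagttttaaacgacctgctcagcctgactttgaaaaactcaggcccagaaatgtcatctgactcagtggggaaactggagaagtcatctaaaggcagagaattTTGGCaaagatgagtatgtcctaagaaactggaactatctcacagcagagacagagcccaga
Aldh1a1 second start, chr19:20601718-20602017, plus strand: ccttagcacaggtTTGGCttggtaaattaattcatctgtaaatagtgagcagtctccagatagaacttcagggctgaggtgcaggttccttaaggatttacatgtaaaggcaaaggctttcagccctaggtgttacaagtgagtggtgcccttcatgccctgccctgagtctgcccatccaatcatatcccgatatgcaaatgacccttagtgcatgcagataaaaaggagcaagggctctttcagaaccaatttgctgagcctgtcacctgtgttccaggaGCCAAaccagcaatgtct
Both strands were searched. The Rarb match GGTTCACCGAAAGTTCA lay at -53 to -37 from the start, and 2 of 32851 promoter windows (0.00609%) held such a pair. The repeat of AGGTCA at the same spacing was in 3 windows, none of them among the 12. The half-site TTGGC was in 46.7% of all windows and in 7 of the 12, from Cyp26b1, Aldh1a1, Rara and Rarg. TTGGC and GCCAA 5 bases apart, which contains that half-site at each end, was in 12 of all windows and in none of these genes. A match is a run of letters and says nothing of binding.

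Of the 9 genes, 6 passed the filter on low values, and Cyp26b1 passed it only through its level in control libraries. Aldh1a1, Aldh1a2 and Rarb fell under it and were tested only in a fit without the filter, over the 19184 symbols above 0. Crabp2 and Cyp26b1 were called lower, 2 of the 6 tested, where 15.1% of all tested genes were called lower. Of these 6, 0 were called higher by limma, where 16.1% of all tested genes were called higher. At an unadjusted limma p under 0.05, 3 of the 6 were lower and 0 higher. In the fit without the filter 0 of the 3 low genes were called, while at an unadjusted p under 0.05 Aldh1a1 was higher and Rarb lower. The share of all genes at an unadjusted p under 0.05 is not given here for either fit. In 5 of the 9 genes the groups did not overlap, 4 lower and 1 higher with Nfia, where 17.9% and 18.4% of symbols above 0 were lower and higher without overlap. Among the 6 tested genes 3 were lower without overlap and 0 higher, against 22.9% lower and 24.7% higher of all tested genes. The exact permutation test cannot go below p = 0.1 with 3 against 3 libraries, and it gave that value for each of the 5 genes without overlap. Gene positions below are RefSeq spans (GRCm38.p6).

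**Figure D1:**
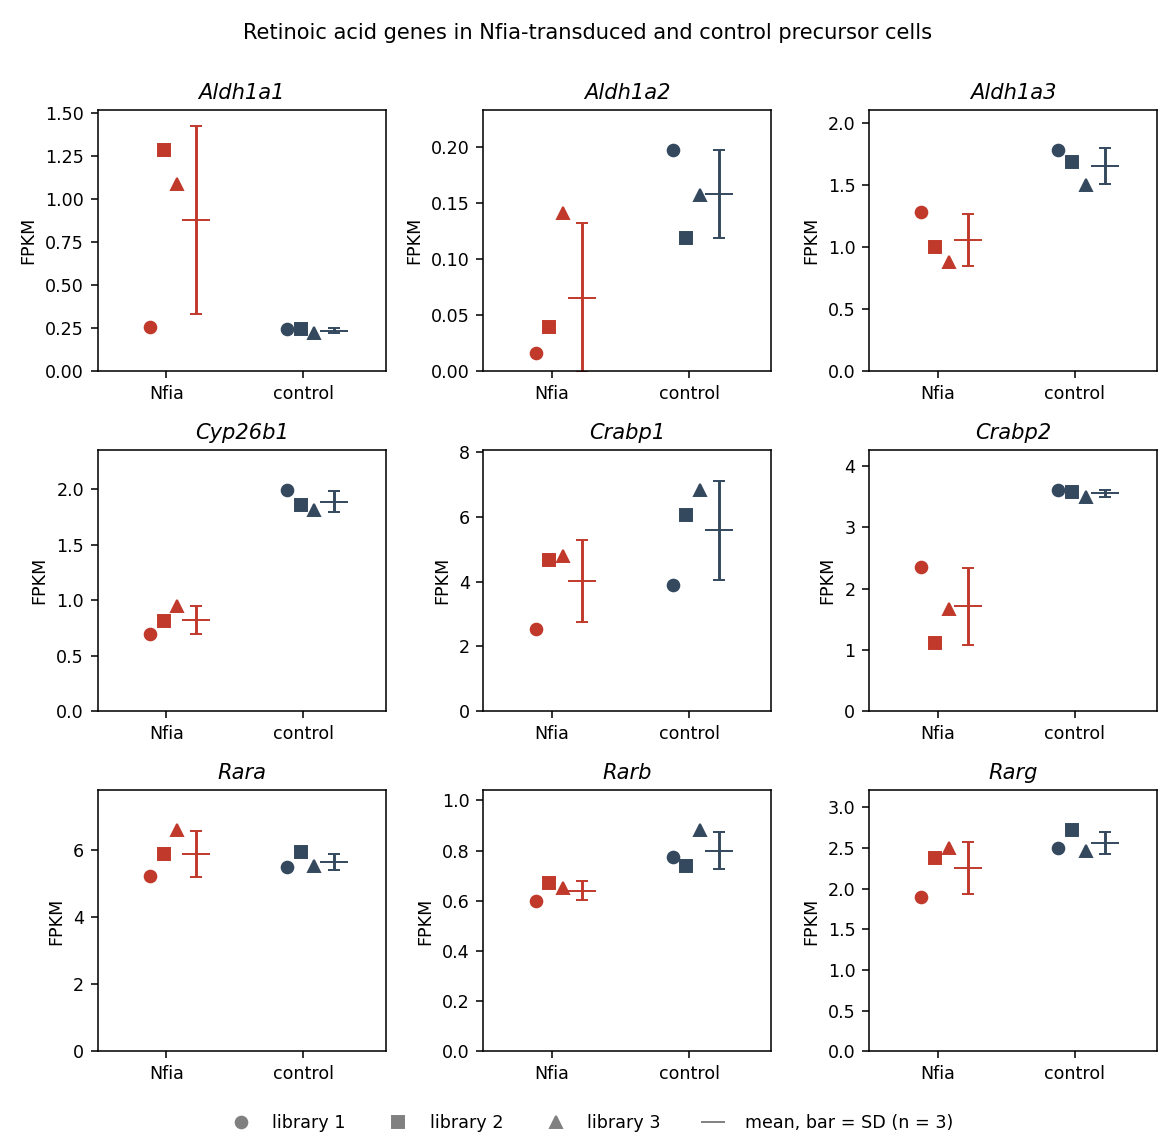
FPKM (y axis, linear, from 0) of the 9 retinoic acid genes in the 3 Nfia and 3 control libraries, with the mean and SD of each group beside the points. Cyp26b1 and Crabp2 lie lower in all 3 Nfia libraries, and Aldh1a1 is above 1 FPKM in Nfia 2 and Nfia 3 only. The lower SD bar of Aldh1a2 with Nfia is cut at 0.

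The synthesis genes did not move as a block. Aldh1a3 (chr7:66390892-66427477), the most abundant of the 3 in control cells, was at 1.29, 1.00 and 0.882 FPKM in Nfia libraries, against 1.78, 1.69 and 1.5 FPKM in control libraries. Every Nfia library lay below every control library. The means were 1.06 ± 0.207 FPKM with Nfia and 1.65 ± 0.145 FPKM in control (SD, n = 3 each), and the difference missed the threshold (log2 difference -0.37, SE 0.12, 95% interval -0.65 to -0.09, limma adjusted p = 0.0550). It passed with Nfia 1 left out (adjusted p = 0.0392) and without the filter (adjusted p = 0.0453). With any other library left out it missed, at an adjusted p up to 0.139.

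Aldh1a1 (chr19:20492583-20643463) differed between the Nfia libraries themselves. It was at 0.256, 1.29 and 1.09 FPKM in Nfia libraries, against 0.243, 0.245 and 0.222 FPKM in control libraries. Nfia 1 was level with the control libraries, and Nfia 2 and Nfia 3 stood well above them. The means were 0.878 ± 0.547 FPKM with Nfia and 0.236 ± 0.0131 FPKM in control (SD, n = 3 each), a ratio of 3.71, and the fit without the filter did not call it (log2 difference 0.56, limma adjusted p = 0.142). Leaving out Nfia 1 brought the adjusted p to 0.00320 (log2 difference 0.82), and leaving out any other library gave 0.246 to 0.314. Aldh1a7, a near-identical neighbour on the same chromosome, was at 0.0540 to 0.105 FPKM in Nfia libraries and 0.0659 to 0.131 FPKM in control libraries. How reads shared by such copies were assigned is unknown here, so both levels are uncertain to that extent.

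Aldh1a2 (chr9:71215789-71296243) was the lowest of the 9 genes in both groups. It was at 0.0162, 0.0394 and 0.142 FPKM in Nfia libraries, against 0.197, 0.119 and 0.157 FPKM in control libraries. The groups overlapped through Nfia 3, and the fit without the filter did not call it (log2 difference -0.12, limma adjusted p = 0.170). It was called only with Nfia 3 left out (adjusted p = 0.0497).

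The summed level of the 3 synthesis genes overlapped between groups, at 1.56, 2.33 and 2.11 FPKM in Nfia libraries and 2.22, 2.05 and 1.87 FPKM in control libraries. The make-up of that sum differed between libraries. Aldh1a1 gave 16.4%, 55.2% and 51.6% of it in Nfia 1, Nfia 2 and Nfia 3, against 10.9%, 12% and 11.8% in control libraries. Aldh1a3 gave 82.5%, 43.1% and 41.7% in the Nfia libraries, against 80.2%, 82.2% and 79.8% in control libraries. Nfia 1 had a make-up close to that of control cells, while in Nfia 2 and Nfia 3 Aldh1a1 was the larger share.

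**Figure D2:**
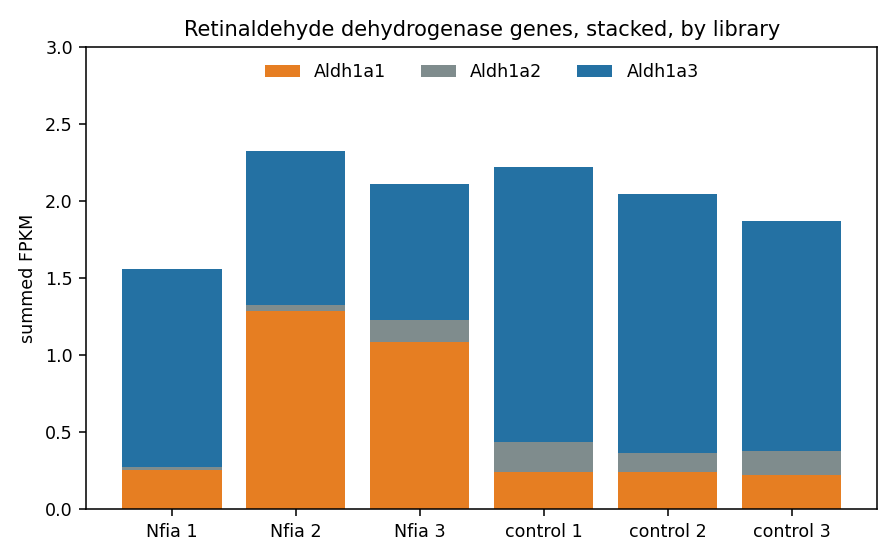
Summed FPKM of Aldh1a1, Aldh1a2 and Aldh1a3 (y axis, stacked, from 0) in each library, Nfia left of control. The totals overlap, at 1.56 to 2.33 FPKM with Nfia and 1.87 to 2.22 FPKM in control, and Aldh1a1 makes up 55.2% and 51.6% of Nfia 2 and Nfia 3.

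Low levels such as these rest on few fragments, which could be counted from the deposited values. In 12841 of the 17901 symbols above 0 in at least 2 libraries (71.7%), all 6 values were whole multiples of 1 step, within 0.02 fragments plus 3e-06 of the count. This used the relative depth of the libraries, 0.760 to 1.11 of control 1, read from the steps of low genes. The numbers are the smallest that fit, and the total depth is unknown. Aldh1a1 then rested on 14, 58 and 41 fragments in Nfia libraries and on 12, 11 and 10 in control libraries. The exact Poisson interval (95%, counting error only) was 7.65 to 23.5 fragments in Nfia 1 and included every control number. In Nfia 3 it was 29.4 to 55.6 and included none. These intervals are of the numbers themselves, before any scaling for depth. Aldh1a2 rested on 1, 2 and 6 fragments in Nfia libraries and on 11, 6 and 8 in control libraries, few in every library. Aldh1a3 rested on 123, 79 and 58 fragments in Nfia libraries and on 154, 132 and 118 in control libraries.

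Cyp26b1, the clearing enzyme's gene, fell in the Nfia libraries. Cyp26b1 (chr6:84571414-84593908) was at 0.699, 0.813 and 0.952 FPKM in Nfia libraries, against 1.99, 1.85 and 1.81 FPKM in control libraries. The groups were far apart, with each Nfia library below 1 FPKM and each control library well above it. The means were 0.821 ± 0.127 FPKM with Nfia and 1.88 ± 0.0937 FPKM in control (SD, n = 3 each), so the control level was 2.30 times the Nfia level (log2 difference -0.67, SE 0.11, 95% interval -0.92 to -0.41, limma adjusted p = 0.00512). It rested on 94, 90 and 88 fragments in Nfia libraries and on 242, 204 and 201 in control libraries, and no Poisson interval of an Nfia library met one of a control library. The call held in every alternative that gave it a test, at an adjusted p of 0.000962 to 0.0359. Its promoter window, printed above, holds 1 NFI half-site, at -127 to -123.

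Transcripts of the other Cyp26 enzymes were at or near 0. Cyp26a1, which retinoic acid strongly induces in many tissues, rested on 0, 1 and 0 fragments in Nfia libraries and on 2, 6 and 1 in control libraries. Cyp26c1 was listed at 0 in all 6 libraries.

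**Figure D3:**
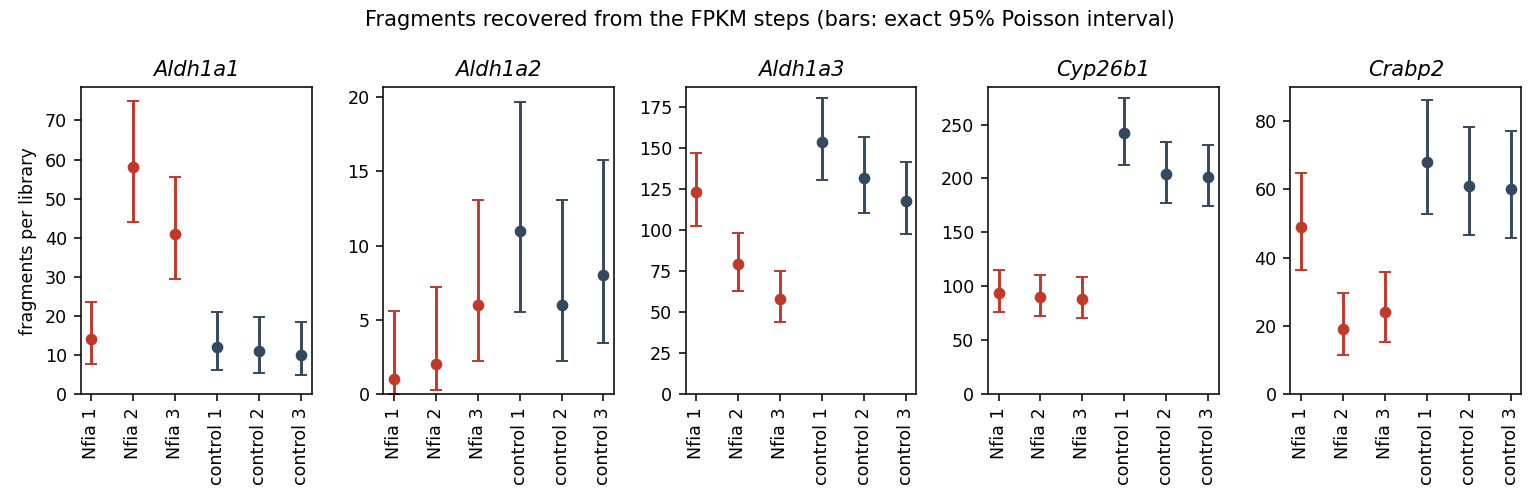
Fragments per library (y axis, linear, from 0) of the 5 retinoic acid genes whose values were whole multiples of 1 step, Nfia left of control, with exact 95% Poisson intervals. Cyp26b1 has 88 to 94 fragments with Nfia and 201 to 242 in control, and Aldh1a1 stands out in Nfia 2 and Nfia 3.

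Of the binding proteins, Crabp2 (chr3:87948693-87953372), which hands retinoic acid to its nuclear receptors, fell. It was at 2.35, 1.11 and 1.67 FPKM in Nfia libraries, against 3.6, 3.57 and 3.48 FPKM in control libraries. The control libraries were almost level, the Nfia libraries spread widely, and the groups did not overlap. The means were 1.71 ± 0.621 FPKM with Nfia and 3.55 ± 0.0611 FPKM in control (SD, n = 3 each), so the control level was 2.08 times the Nfia level (log2 difference -0.77, SE 0.17, 95% interval -1.17 to -0.38, limma adjusted p = 0.0137). It rested on 49, 19 and 24 fragments in Nfia libraries and on 68, 61 and 60 in control libraries. The Poisson interval of Nfia 1 (36.3 to 64.8 fragments) met those of all 3 control libraries, which began at 52.8, 46.7 and 45.8, and those of Nfia 2 and Nfia 3 met none. The call held in every alternative that gave it a test, at an adjusted p of 0.00342 to 0.0433.

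Crabp1 (chr9:54764748-54773110), which is linked to retinoic acid breakdown in the cytosol, did not pass the test. It was at 2.55, 4.67 and 4.80 FPKM in Nfia libraries, against 3.88, 6.05 and 6.82 FPKM in control libraries. The groups overlapped, and in each group the library numbered 1 was the lowest. The means were 4.01 ± 1.27 FPKM with Nfia and 5.58 ± 1.52 FPKM in control (SD, n = 3 each) (log2 difference -0.40, SE 0.24, 95% interval -0.98 to 0.18, limma adjusted p = 0.254). With both libraries numbered 1 left out, a choice made after the values were seen, the log2 difference was -0.37 and was called (adjusted p = 0.0467). A planned limma fit with the replicate number as a block also called Crabp1 (adjusted p = 0.0141). Over all tested genes same-numbered libraries did not deviate together, and the numbers are not taken as pairs. Crabp2 gave 48.0%, 19.1% and 25.8% of the summed level of both genes in Nfia libraries, against 48.1%, 37.1% and 33.8% in control libraries.

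The summed level of mesenchyme and meninges markers was also lowest in the libraries numbered 1. The 10 markers, collagen genes among them, summed to 6.04, 18.8 and 18.0 FPKM in Nfia libraries, against 6.77, 16.4 and 16.6 FPKM in control libraries. Of the 10 markers 6 were tested, and limma called 0 in either direction (0 higher and 0 lower at an unadjusted p under 0.05). No marker was at 0 in all libraries. By single markers, 1 of the 10 was higher without overlap and 0 lower, against 18.4% and 17.9% of symbols above 0. That marker, Twist1, was at 0.749, 1.28 and 1.36 FPKM in Nfia libraries, against 0.311, 0.743 and 0.596 FPKM in control libraries. Aldh1a1 was at 1.29 and 1.09 FPKM in Nfia 2 and Nfia 3, and at 0.245 and 0.222 FPKM in control 2 and control 3. The part of mesenchyme in the Crabp1 and Aldh1a1 values was not tested.

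**Figure D4:**
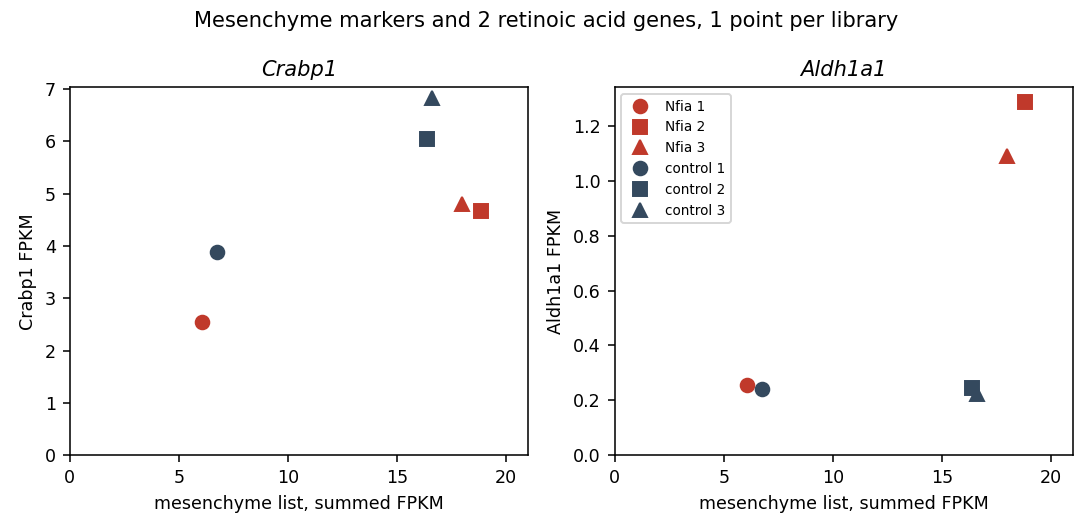
FPKM of Crabp1 (left) and Aldh1a1 (right) (y axes) against the summed FPKM of 10 mesenchyme markers (x axes), 1 point per library, Nfia and control in separate colours. The libraries numbered 1 lie at sums of 6.04 FPKM with Nfia and 6.77 FPKM in control.

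None of the receptors passed the test. Rara (chr11:98927800-98974942), the most abundant of the 9 genes by mean level in both groups, was at 5.23, 5.88 and 6.60 FPKM in Nfia libraries, against 5.50, 5.94 and 5.52 FPKM in control libraries. The groups overlapped (log2 difference 0.05, SE 0.08, 95% interval -0.15 to 0.25, limma adjusted p = 0.692). Rarg (chr15:102234938-102257522) was at 1.90, 2.38 and 2.50 FPKM in Nfia libraries, against 2.50, 2.72 and 2.46 FPKM in control libraries. These groups overlapped too (log2 difference -0.13, SE 0.10, 95% interval -0.37 to 0.11, limma adjusted p = 0.354). Rarb (chr14:16430839-17082331), whose promoter carries the element shown above, was at 0.598, 0.672 and 0.650 FPKM in Nfia libraries, against 0.776, 0.740 and 0.881 FPKM in control libraries. Each Nfia library lay below each control library, but the fit without the filter did not call it (log2 difference -0.13, limma adjusted p = 0.150). The summed receptor level was 7.72, 8.93 and 9.74 FPKM in Nfia libraries and 8.78, 9.40 and 8.86 FPKM in control libraries, with overlap. Rara gave 65.8% to 67.7% of it with Nfia and 62.3% to 63.2% in control.

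By FPKM level, the order in Nfia cells was Rara, Crabp1, Rarg, Crabp2, Aldh1a3, Aldh1a1, Cyp26b1, Rarb and Aldh1a2. In control cells it was Rara, Crabp1, Crabp2, Rarg, Cyp26b1, Aldh1a3, Rarb, Aldh1a1 and Aldh1a2. The libraries of neighbours overlapped along the run from Rarg to Cyp26b1 in Nfia cells, so the order there is not resolved. Aldh1a1 (0.256 to 1.29 FPKM) also spanned Rarb (0.598 to 0.672 FPKM) in Nfia libraries, so the order of that pair is not resolved either. In control cells the only neighbours that overlapped were Rara and Crabp1.

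Genes around the pathway were read from 3 lists. Over all tested genes limma called 16.1% higher and 15.1% lower, the shares to set beside each count. Of 18 genes of retinol uptake, storage and retinaldehyde formation, 17 were in the files and 8 were tested, with 1 higher and 1 lower (median log2 difference -0.11, against 0.01 over all genes tested). Rdh11, a retinal reductase, was at 37.7 ± 1.86 FPKM with Nfia and 32.2 ± 2.34 FPKM in control (log2 difference 0.22, limma adjusted p = 0.0387). Dhrs4, a short-chain reductase, was at 10.8 ± 0.353 FPKM with Nfia and 14 ± 1.87 FPKM in control (log2 difference -0.34, limma adjusted p = 0.0285). These calls were lost in 5 and in 4 of the 6 fits that left out a library, at an adjusted p up to 0.121 for Rdh11 and 0.0853 for Dhrs4. Rdh11 was lost without Nfia 1, Nfia 2, Nfia 3, control 1 or control 3, and Dhrs4 without Nfia 1, Nfia 2, Nfia 3 or control 3. Both were also lost with no filter (adjusted p = 0.0566 for Rdh11 and 0.0510 for Dhrs4).

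Of 7 genes for other clearing and binding proteins and the RXR partners, 4 were tested, with 1 higher and 0 lower by limma. Over all tested genes 16.1% were called higher and 15.1% lower. In this list 1 gene was lower at an unadjusted p under 0.05, and the median log2 difference was 0.16. Rxra, the RXR partner called, was at 9.20 ± 0.404 FPKM with Nfia and 7.90 ± 0.218 FPKM in control (log2 difference 0.20, limma adjusted p = 0.0301). Its call was lost without Nfia 1, Nfia 3, control 1 or control 3 (adjusted p = 0.0806 to 0.0905), with no filter (0.0580) and with upper-quartile scaling (0.0567).

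Of 19 genes that retinoic acid is known to induce in various settings, 6 were tested (median log2 difference -0.20). Of these 6, 0 were higher at an unadjusted p under 0.05. Limma called 0 higher and 3 lower, where 16.1% of all tested genes were called higher and 15.1% lower. All 3 encode transcription factors. Meis2, a homeobox gene, was at 53.9 ± 3.89 FPKM with Nfia and 75.1 ± 6.03 FPKM in control (log2 difference -0.47, limma adjusted p = 0.00486), and its call held in every alternative. Nr2f2, a nuclear receptor gene, was at 14.9 ± 1.46 FPKM with Nfia and 18.7 ± 0.593 FPKM in control (log2 difference -0.32, limma adjusted p = 0.0178). Its call was lost without control 1 or control 3 (adjusted p = 0.0505 to 0.0617). Tshz1, a zinc finger gene, was at 16 ± 0.978 FPKM with Nfia and 19.0 ± 0.277 FPKM in control (log2 difference -0.23, limma adjusted p = 0.0160). Its call was lost without Nfia 2 or control 3 (adjusted p = 0.0545 to 0.0610). The 5 Hox genes of the list and Cdx1 stayed at or below 0.0285 FPKM in every library.

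Rbp4, Rxrg and Dhrs3 fell under the filter and outside the rule for naming genes, and were picked after their values were seen. The fit without the filter called 9.55% of symbols lower and 9.74% higher. Rbp4, the retinol carrier of blood, was at 0.780, 0.948 and 0.935 FPKM in Nfia libraries, against 0.406, 0.0561 and 0.111 FPKM in control libraries. All Nfia libraries were higher (log2 difference 0.67, limma adjusted p = 0.0115), on 17, 17 and 14 fragments in Nfia libraries and on 8, 1 and 2 in control libraries. Rxrg, an RXR, was at 0.567, 0.359 and 0.364 FPKM in Nfia libraries, against 1.43, 0.999 and 1.09 FPKM in control libraries. Dhrs3, which turns retinaldehyde back to retinol and is itself induced by retinoic acid, was at 0.266, 0.376 and 0.225 FPKM in Nfia libraries, against 0.587, 0.722 and 0.885 FPKM in control libraries. Rxrg (log2 difference -0.60, limma adjusted p = 0.0104) and Dhrs3 (log2 difference -0.42, limma adjusted p = 0.0158) were lower in all Nfia libraries. With 1 library left out the calls of Rbp4 (adjusted p = 0.00592 to 0.0448) and Rxrg (0.0161 to 0.0444) held. The Dhrs3 call was lost without Nfia 3 (adjusted p = 0.0513).

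**Figure D5:**
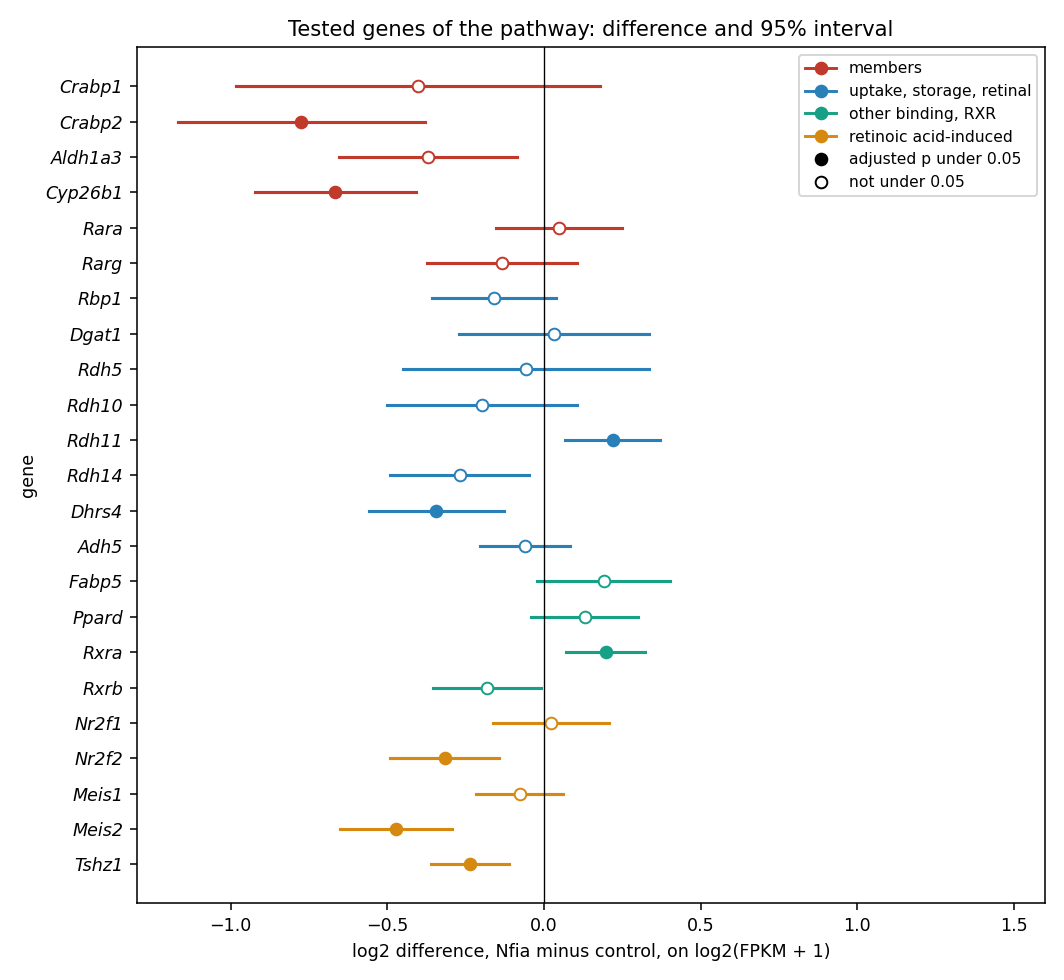
Log2 difference, Nfia minus control, on log2(FPKM + 1) (x axis), with limma's 95% interval, for the tested genes of the pathway (y axis), coloured by list and filled where the adjusted p is under 0.05. Of the 9 genes, the called ones lie left of 0, where Crabp2 is at -0.77 and Cyp26b1 at -0.67.

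Markers of other cell states differed between the same libraries. Of all tested genes 16.1% were called higher and 15.1% lower. Lists with only 1 or 2 tested genes are too small to set against these shares. Of 10 neuron markers 9 were lower, with sums of 1111 to 1125 FPKM in Nfia libraries and 1737 to 1815 FPKM in control libraries. Of 11 tested markers of the lateral ganglionic eminence and striatal lineage 9 were lower, with sums of 131 to 151 FPKM in Nfia libraries and 196 to 217 FPKM in control libraries, and Meis2 is in this list too. Oligodendrocyte lineage markers, with 2 higher and 2 lower of 7, summed to 1054 to 1115 FPKM in Nfia libraries and 363 to 409.8 FPKM in control libraries. Olig1 and Olig2, the 2 called higher, made up most of that sum, and Pdgfra and Mbp were called lower. Astrocyte markers, with 1 higher and 2 lower of 4 tested, summed to 195 to 206 FPKM in Nfia libraries and 137 to 158 FPKM in control libraries. Most of that sum was Aldoc, the 1 called higher, at 173 to 184 FPKM with Nfia and 109 to 127 FPKM in control. Of the 6 astrocyte markers, 4 were lower without overlap and 1 higher, against 17.9% and 18.4% of symbols above 0. Choroid plexus markers summed to 33.0 to 36.0 FPKM in Nfia libraries and 38.3 to 41.7 FPKM in control libraries, with 1 of 2 tested lower. Otx2 made up most of that sum, at 30.5 to 34.2 FPKM with Nfia and 33.8 to 37.2 FPKM in control. It was not called (limma adjusted p = 0.275). Ttr, the 1 called lower, was at 0.668 to 0.996 FPKM with Nfia and 2.07 to 3.12 FPKM in control. Endothelial markers summed to 1.70 to 2.24 FPKM in Nfia libraries and 2.58 to 3.68 FPKM in control libraries, with the 1 tested lower. Microglia markers summed to 1.16 to 1.6 FPKM in Nfia libraries and 1.36 to 2.36 FPKM in control libraries, and erythroid markers to 0.50 to 0.738 FPKM in Nfia libraries and 0.512 to 1.45 FPKM in control libraries with Hbb-y at 0 in all, and none of these was tested. The part of these cell types in the differences of Crabp2, Cyp26b1 and Aldh1a3 was not tested.

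The genes most like Crabp2 over the 6 libraries, among 9089 genes with a mean of 5 FPKM or more, were Edc3 and Atp6v0e2, with Pearson's r of 0.991 and 0.990. Those most like Cyp26b1 were Mtmr7 and Slitrk1, with r of 0.999 and 0.999. The points share the split into 2 groups, and the values are a description. Mtmr7 was at 3.42, 3.79 and 4.27 FPKM in Nfia libraries, against 6.89, 6.53 and 6.32 FPKM in control libraries. Slitrk1 was at 5.56, 5.82 and 6.07 FPKM in Nfia libraries, against 8.64, 8.16 and 8.21 FPKM in control libraries.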

How the data were processed

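The values used are FPKM of 3 Nfia and 3 control RNA libraries, deposited by the authors as 1 value per symbol with no header, so the unit was read from the values. Per the labels' protocols, libraries came from a directional kit after poly(A) selection. Per the submitters' processing notes, the build was mm10 and the tools were Bowtie version 1, TopHat, Cufflinks, Cuffdiff, SAMtools and MACS version 1.4, in no stated role. Annotation, filters and strand setting: not given in the sources used here. Antisense partners may therefore share reads.

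Deposited FPKM (library totals of 474010 to 511700) were put on the log2(FPKM + 1) scale and tested, two-sided, by limma (version 3.58.1, R version 4.3.3, with a variance trend). Exact Poisson intervals (95%) of fragment numbers cover counting error only. No count model was run, since 1 fragment is worth a different FPKM in each gene. The main fit and the recovery of fragment numbers were tested on simulated data, and the alternative fits, the one without the filter included, were not. A ratio of means is of FPKM.

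The genes and lists were chosen with earlier results of these data known. By rule the text names the 9 genes, the transduced gene, list genes that passed the test (at most 6 a list), and the 2 genes most like each called gene; marker lists are given by counts and sums. Aldh1a7, Cyp26a1, Cyp26c1, Fabp5, Cdx1, Rbp4, Rxrg, Dhrs3 and the Hox genes are named outside it, after their values were seen. So are the single genes named from marker lists, other than Meis2. One further list is not reported here. Alternatives were a pseudocount of 0.1, no filter, a minimum mean of 5 FPKM, other scalings, other variance models, a replicate block and each library left out. Leaving out both libraries numbered 1, and joining no filter with the block or a left-out library, were added after seeing the data.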

Additional observations from a re-analysis of the deposited data

How the results depend on the processing

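Crabp2 and Cyp26b1 kept their direction and call in each alternative that gave them a test, with log2 differences of -1.07 to -0.61 and -1.12 to -0.59. With 1 library left out, Crabp2 gave -0.94 to -0.61, Cyp26b1 -0.72 to -0.62, Crabp1 -0.60 to -0.17, Aldh1a3 -0.45 to -0.31, Rarg -0.19 to -0.05, Aldh1a1 0.39 to 0.82, Aldh1a2 -0.17 to -0.09 and Rarb -0.16 to -0.10. Rara gave -0.023 to 0.12, the negative value without Nfia 3 (adjusted p = 0.847), and was never called. Over all tested genes same-numbered libraries did not deviate together (r = 0.0264, -0.00578 and 0.0461), although Crabp1 and the mesenchyme sum were lowest in library 1 of both groups, and the numbers are not taken as pairs. The replicate block gave 2130 higher and 1916 lower genes and called Crabp1 (-0.40, adjusted p = 0.0141). The block without the filter called Crabp1 (-0.40, 0.0389) and Aldh1a3 (-0.37, 0.0438). Under the block Rxra lost its call (adjusted p = 0.0603) and Fabp5 gained one (adjusted p = 0.0406). Without replicate 1 of both groups Crabp1 was -0.37. Aldh1a3 also passed with upper-quartile scaling (-0.39, 0.0439), no filter (-0.37), no variance trend (0.0220) and a robust trend (0.0275). A pseudocount of 0.1 gave 1.32 for Aldh1a1, -0.70 for Aldh1a2 and -0.28 for Rarb, by construction a larger size at low levels. A minimum mean of 5 FPKM left Rara alone of the 9 genes. The counts over all genes were 2020 higher and 1898 lower, 1311 to 1724 and 1277 to 1620 with 1 library left out (fewest without Nfia 2), and 1196 higher and 1094 lower without replicate 1 of both groups. Over the 3 pathway lists 2 genes were higher and 4 lower. With 1 library left out 0 to 2 were higher and 1 to 4 lower. With no filter Rdh11, Rxra and Dhrs4 lost their calls and 1 other gene, Rbp4, was higher. Rxrg and Dhrs3 gained calls there, so that 5 genes were lower. A robust trend also gave 5 lower. With quantile normalization or no variance trend 1 was higher, with upper-quartile scaling 0 were, and without replicate 1 of both groups 0 were higher and 2 lower. Where no construction shows it, the cause was not tested. Depth limits low genes such as Aldh1a2, at 11 fragments or fewer in any library.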

Other observations

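Several genes of fibroblasts and mesenchyme were low in both libraries numbered 1. Col1a1, a fibrillar collagen gene, was at 1.09, 4.98 and 5.16 FPKM in Nfia libraries, against 0.889, 2.95 and 3.23 FPKM in control libraries. Col3a1, another collagen gene, was at 1.19, 5.54 and 4.84 FPKM in Nfia libraries, against 1.32, 4.71 and 5.02 FPKM in control libraries. Lum, which encodes a small leucine-rich proteoglycan, was at 0.357, 1.32 and 1.48 FPKM in Nfia libraries, against 0.671, 1.74 and 1.82 FPKM in control libraries. In each of these genes libraries 2 and 3 lay above library 1 in both groups, and limma called none of them between the groups (adjusted p = 0.544, 0.980 and 0.576). These 3 were picked after their values were seen. Foxd1, of the same marker list, went the other way with Nfia. It was at 0.266, 0.162 and 0.108 FPKM in Nfia libraries, against 0.147, 0.235 and 0.251 FPKM in control libraries.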
